A study of Mus musculus with 6 samples.

Results

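Formins, N-WASP and Enah are proteins that start or extend actin filaments, and each carries long stretches of the amino acid proline. The 10 genes described here were chosen by family and by these stretches: the formin genes Diaph1, Diaph2, Diaph3, Fmnl1, Fmnl2, Fmnl3, Daam1 and Fhod1, the N-WASP gene Wasl, and Enah. Their rows were taken by symbol from a table of 22770 genes, in which 9 of the 10 had a row and Diaph2 was not analysed here. The table covers round spermatids, the haploid germ cells that follow meiosis, sorted by fluorescence from mouse testes at postnatal day 28, mainly at step 8 of their maturation. Of 6 libraries, 3 are labelled Eif5a SKO, which the labels leave unexpanded, and 3 wild type. The sources used here do not name the driver of the deletion, the alleles that both genotypes may share, or the number of animals or cells behind a library. If the libraries of a group are not separate animals, p-values measure only the spread between libraries. The Smart-seq2 libraries were amplified by PCR and carry no molecular identifiers, so counts are not independent molecules.

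Library totals ran from 52055193 to 60970931 counts. Eif5a, the gene named in the genotype label, had 333, 338 and 270 counts in SKO replicates 1 to 3 and 41149, 36162 and 41278 in wild type, which goes with the label of every library (log2 fold change -6.74 ± 0.17, edgeR adjusted p = 9.54e-08). The summed level of 10 round spermatid markers was high in all libraries, with CPM (counts scaled to 1000000 per library, with TMM factors) of 4094 to 4571 in wild type against 6361 to 7201 in SKO. SKO replicate 3 stood apart from the other SKO libraries on the second principal component, at -71.4 against 40.3 and 37.6. Fold changes of the members are given with and without it, and those of partner genes only in part. Fold changes are SKO against wild type ± SE, and a gene is called higher or lower where edgeR's quasi-likelihood test gave an adjusted p under 0.05 over all 19776 genes tested.

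As background, formins hold on to the growing end of an actin filament through their FH2 domain, and their proline-rich FH1 domain binds profilin, which brings actin monomers. N-WASP relays signals from the membrane to the Arp2/3 complex, which starts branches on existing filaments. Enah, of the Ena/VASP family, extends filaments and also binds profilin through prolines, so it is an elongation factor more than a nucleator. In spermatids, actin filaments lie between the acrosome and the nucleus and, in the neighbouring Sertoli cell, around the spermatid head. EIF5A, with its hypusine residue, helps ribosomes through runs of prolines. The counts measure messenger RNA and hold no measure of translation.

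The stretches that define these genes are shown for 3 members as coding sequence of the GENCODE M21 transcript with the longest coding sequence (GRCm38), 5′ to 3′ on the coding strand, with runs of at least 3 proline codons in capitals. Fmnl1 and Enah are shown because they were the members whose RNA passed the test, and Diaph3 as the other abundant member. The Fmnl1 stretch, at chr11:103193471-103193689 on the plus strand in exon 16 of 27, covers codons 542 to 614 and all 4 of its runs. The Enah stretch, at chr1:181921827-181921979 on the minus strand in exon 7 of 15, covers codons 432 to 482 and 4 of its 10 runs. The Diaph3 stretch lies at chr14:86966433-86966528 on the minus strand in exon 16 of 28 (codons 565 to 596).
Fmnl1: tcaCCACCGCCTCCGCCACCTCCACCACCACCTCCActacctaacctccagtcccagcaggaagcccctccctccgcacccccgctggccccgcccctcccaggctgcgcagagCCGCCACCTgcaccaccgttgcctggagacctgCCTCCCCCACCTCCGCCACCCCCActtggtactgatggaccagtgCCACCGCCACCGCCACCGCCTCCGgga
Enah: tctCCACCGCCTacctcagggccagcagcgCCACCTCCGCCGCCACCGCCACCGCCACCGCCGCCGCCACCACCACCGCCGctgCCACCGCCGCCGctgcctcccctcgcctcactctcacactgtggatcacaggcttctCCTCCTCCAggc
Diaph3: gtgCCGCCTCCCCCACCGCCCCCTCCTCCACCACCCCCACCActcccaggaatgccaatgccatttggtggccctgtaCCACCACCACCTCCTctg

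All 10 genes carried such runs, 59 in total with 377 proline codons in them. The longest run was 18 prolines in Fmnl2, 17 in Enah, 13 in Diaph3, 12 in Diaph2, 11 in Fmnl1 and in Wasl, 10 in Fhod1, 8 in Diaph1 and 6 in Daam1 and in Fmnl3. Runs of 6 or more occurred in 1.86% of the 13301 coding genes tested and runs of 3 or more in 21.9%. Wasl had the densest stretch, with 63 of its 501 codons in runs of prolines. Diaph1 had 12 runs and Fmnl3 had 2. In the formins the runs lay near the middle of the coding sequence, between codons 519 and 744, apart from a run of 3 at codon 919 of Diaph3.

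**Figure D1:**
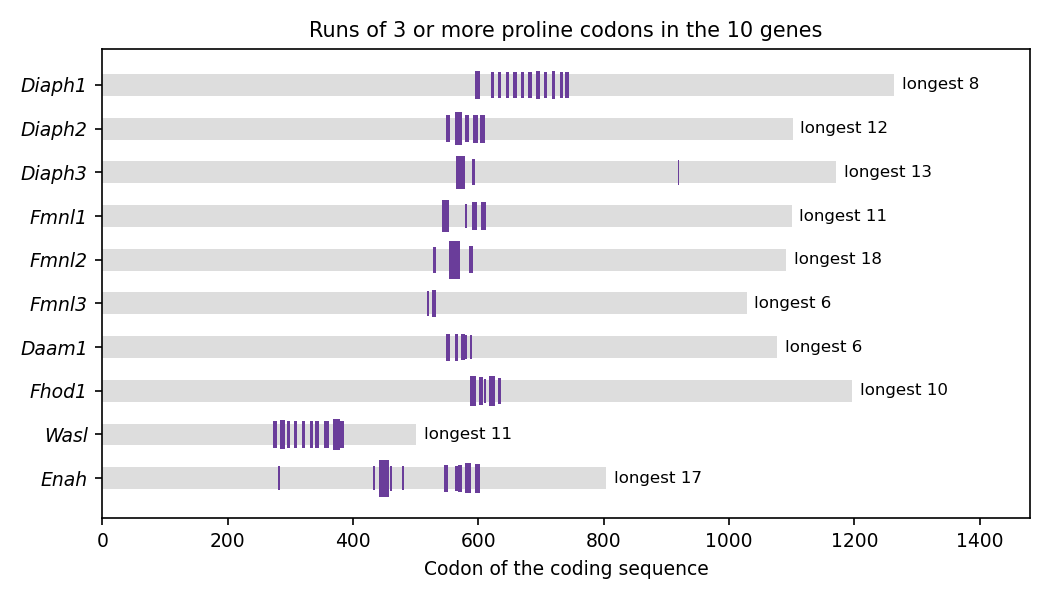
Position of runs of 3 or more proline codons (purple, taller for longer runs) along the coding sequence of the 10 genes, in codons from the start codon, with grey bars for the full coding length. Fmnl2 has the longest run, of 18, and Daam1 and Fmnl3 the shortest longest run, of 6.

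The runs differed in the codons that spell them. CCG made up 26.7% of the 30 codons in the runs of Fmnl1 and 21.9% of the 64 in Enah. Over the runs of all 10 genes, Fmnl1 and Enah included, it made up 8.22%. It was 10.4% of all proline codons, inside or outside runs, in the coding genes tested, which is not a measure of runs alone. The share of CCG in runs was 11.4% in Fhod1, 10% in Fmnl3, 9.52% in Diaph3 and 3.17% in Wasl. Diaph1, Diaph2, Fmnl2 and Daam1 used no CCG in their runs. CCT was the most frequent codon over the 10 genes, at 39.5%, and CCA followed at 34.7%.

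Levels of different genes are compared per kilobase of that transcript. In wild type Enah stood highest at 11.5 ± 1.41 CPM per kb (mean ± SD, n = 3), followed by Fmnl1 at 10.4 ± 0.245, with overlapping ranges. Diaph3 followed at 6.77 ± 0.763 CPM per kb, below the range of Fmnl1. Daam1 came next at 1.300 ± 0.146, then Diaph1 at 0.901 ± 0.196, Wasl at 0.849 ± 0.157 and Fhod1 at 0.657 ± 0.154. The ranges of Diaph1 and Wasl overlapped, and so did those of Wasl and Fhod1. Fmnl2 and Fmnl3 were the scarcest members, at 0.190 ± 0.00794 and 0.154 ± 0.0788 CPM per kb. The counts join all isoforms of a gene, and the place of Enah depended on the length used: per kilobase of all exons joined, Fmnl1 stood at 8.17, Diaph3 at 5.57 and Enah at 1.55.

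**Figure D2:**
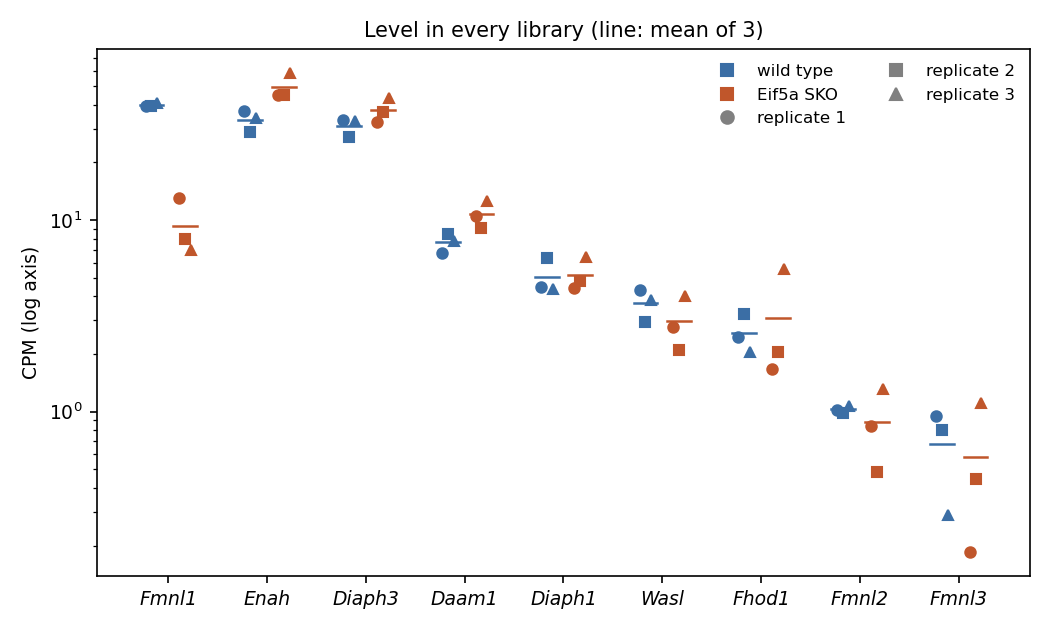
Level of each member in every library in CPM on a log axis (blue, wild type; orange, Eif5a SKO; symbols, replicates 1 to 3; lines, means of 3). Fmnl1 is the only member whose SKO libraries, at 7.01 to 12.97 CPM, all lie far below the wild-type libraries, at 39.2 to 41.0 CPM.

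Fmnl1 fell and Enah rose, and the other 7 members did not pass the test. The 2 calls of 9 are fewer than over all genes, of which 42% were called, 21.2% higher and 20.9% lower, so the genes as a group did not stand out by their number of calls. The median log2 fold change of the 9 was 0.04, against 0.01 over all genes. With the length and GC correction the median was 0.29, against -0.01 over all genes. Without SKO replicate 3 the median was -0.50, against -0.05 over all genes. That library had the highest SKO level of 8 of the 9 members and the lowest of Fmnl1. Among SKO libraries it also had the highest summed CPM of leukocyte markers, at 30.2, and of myoid markers, at 116.4. It had the lowest sums of Sertoli markers, at 36.7, spermatocyte markers, at 724.0, spermatogonium markers, at 18.3, and elongating spermatid markers, at 11418. The part of these in the member levels of that library was not tested. Without SKO replicate 3 Enah still rose by 0.40 (edgeR adjusted p = 0.0331) and Fmnl1 still fell by 1.97 (adjusted p = 7.4e-05).

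Fmnl1 encodes a formin known mainly from leukocytes, where it acts in adhesion and movement. In replicates 1 to 3 its CPM was 39.5, 39.2 and 41.0 in wild type, against 12.97, 7.98 and 7.01 in SKO. The wild-type libraries lay close together and the highest SKO library was far below the lowest of them. The mean fell from 39.9 ± 0.937 to 9.32 ± 3.20 CPM, a log2 fold change of -2.10 ± 0.23, or 4.28-fold lower (edgeR adjusted p = 0.00014). Fmnl1 made up 30.5% to 33.3% of the summed CPM of the 9 members in wild type and 5.02% to 11.7% in SKO. The gene lies at chr11:103171107-103198901 on the plus strand, and 102 of its exon bases overlap the antisense gene Gm20511, which has no row in the table. Its direction and call held under each alternative run, with log2 fold changes of -2.43 to -1.55.

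Leukocyte markers were mixed beside Fmnl1. Of 10 listed markers 7 had a row and 6 were tested. Adgre1, a macrophage marker, fell with Fmnl1, with CPM of 2.47, 3.36 and 2.10 in wild type, against 0.207, 0.353 and 0.594 in SKO (-2.77 ± 0.42, edgeR adjusted p = 0.000802). Lyz2, Cd74 and Tyrobp rose, and C1qa and C1qb did not pass. The summed CPM was 4.92 to 5.40 in wild type, against 2.31, 19.1 and 30.2 in SKO replicates 1 to 3, of which Cd74 made up 0.0826, 11.9 and 21.8. Ptprc, Csf1r and Laptm5 had no row, and Cd68 and Tyrobp were at 0 in some libraries. The part of leukocyte RNA in the level and change of Fmnl1 was not tested.

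The CPM of Enah was 37.0, 28.9 and 33.9 in wild type, against 44.8, 45.0 and 58.4 in SKO. All SKO libraries lay above all wild-type libraries. The mean rose from 33.3 ± 4.08 to 49.4 ± 7.77 CPM, a log2 fold change of 0.57 ± 0.17, or 1.48-fold (edgeR adjusted p = 0.0207). The gene lies at chr1:181896384-182019990 on the minus strand. The call ended under library totals alone (0.34, edgeR adjusted p = 0.154), without wild-type replicate 2 (0.48, adjusted p = 0.0874) and without wild-type replicate 3 (0.58, adjusted p = 0.0621). Corrected for length and GC content of the transcript, the log2 fold change was 1.04 (edgeR adjusted p = 0.0011).

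**Figure D3:**
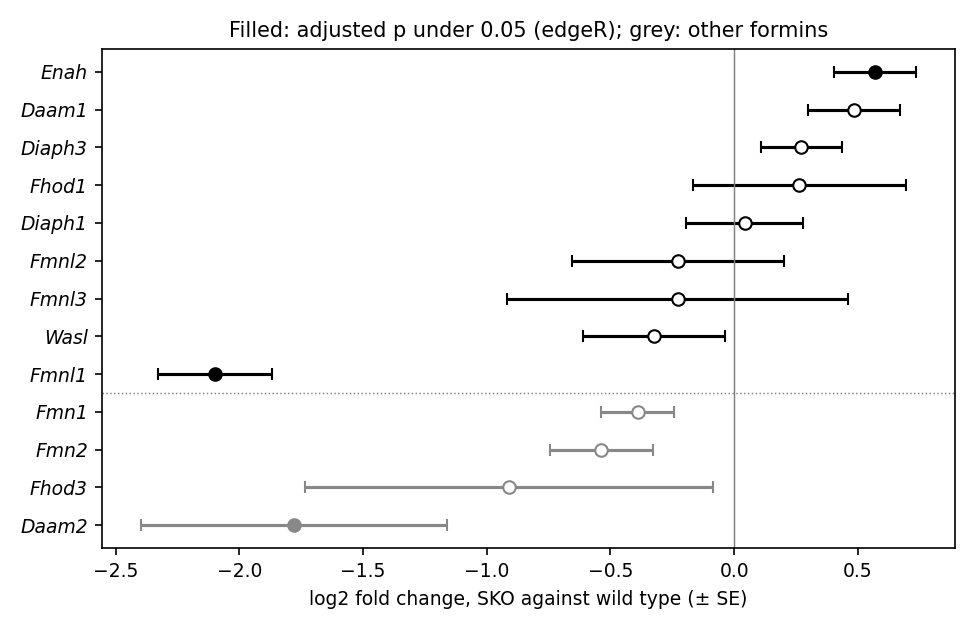
Log2 fold change of SKO against wild type ± SE from edgeR for the 9 members (black) and the 4 other formin genes with a row (grey). Filled points passed an adjusted p under 0.05: Enah at 0.57, Fmnl1 at -2.10 and Daam2 at -1.78.

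The diaphanous formins act in stress fibres and cytokinesis. Diaph3, at chr14:86655367-87141235, had CPM of 33.1, 27.0 and 33.0 in wild type, against 32.4, 36.6 and 43.3 in SKO. The groups overlapped, and the log2 fold change of 0.27 ± 0.16 did not pass (edgeR adjusted p = 0.211), and was 0.12 without SKO replicate 3. Diaph1 CPM was 4.48, 6.31 and 4.34 in wild type, against 4.42, 4.79 and 6.38 in SKO, and the groups overlapped over most of their range. Its log2 fold change was 0.04 ± 0.24 (edgeR adjusted p = 0.903), and its sign turned under library totals (-0.19) and without SKO replicate 3 (-0.17).

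Daam1 links Wnt signals of cell polarity to actin. It had CPM of 6.71, 8.40 and 7.81 in wild type, against 10.5, 9.09 and 12.6 in SKO. Its groups did not overlap, which also held for 55.6% of all genes tested and, among members, for Enah and Fmnl1. The log2 fold change was 0.49 ± 0.19, and the test missed the threshold (edgeR adjusted p = 0.0603). It passed with a filter of 5 CPM in 3 libraries (adjusted p = 0.0416) and with the length and GC correction (adjusted p = 0.0196), and the log2 fold change was 0.32 without SKO replicate 3. The gene lies at chr12:71831078-71992333.

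Wasl, at chr6:24613805-24665009, had CPM of 4.29, 2.95 and 3.85 in wild type, against 2.77, 2.10 and 4.00 in SKO. The SKO library with the highest value was replicate 3, inside the wild-type range, and the log2 fold change was -0.32 ± 0.29 (edgeR adjusted p = 0.394). Without that library it was -0.64 (adjusted p = 0.0723). Fhod1, a formin of stress fibres at chr8:105329163-105347953, had CPM of 2.45, 3.24 and 2.05 in wild type, against 1.67, 2.06 and 5.56 in SKO. SKO replicate 3 stood above all other libraries. The log2 fold change was 0.26 ± 0.43 (edgeR adjusted p = 0.657), and -0.50 without SKO replicate 3. Fhod1 shares 116 exon bases with Tmem208 on the other strand, and without strand in the counting their reads cannot be told apart.

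Fmnl2 and Fmnl3, the relatives of Fmnl1 that act in protrusions and cell migration, were scarce. Fmnl2 had 60, 58 and 67 counts in wild type, against 41, 26 and 66 in SKO (log2 fold change -0.23 ± 0.43, edgeR adjusted p = 0.701). Fmnl3 had 56, 47 and 18 counts in wild type, against 9, 24 and 56 in SKO (-0.23 ± 0.69, adjusted p = 0.817). Without SKO replicate 3 they were -0.67 (adjusted p = 0.237) and -1.13 (adjusted p = 0.223). The groups overlapped in each gene, and the SE of 0.69 for Fmnl3 exceeds the change of Enah. Whether the change of Fmnl1 differs from those of its relatives was not tested.

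Of 6 other formin genes, 4 had a row, and Inf2 and Grid2ip were not analysed here. All 4 had negative log2 fold changes and 1, Daam2, was called. Fmn1 CPM was 69.3, 61.6 and 70.4 in wild type, against 44.0, 52.6 and 57.0 in SKO, which did not overlap (-0.39 ± 0.15, edgeR adjusted p = 0.0565). Its wild-type level of 13.5 ± 0.963 CPM per kb was above the mean of Enah, with overlapping ranges. Fmn2, a formin of oocyte meiosis, had CPM of 15.3, 14.4 and 16.1 in wild type, against 8.55, 13.97 and 9.05 in SKO (-0.54 ± 0.21, edgeR adjusted p = 0.0627). Fmn1 and Fmn2 passed under library totals, DESeq2 and limma-voom, Fmn1 also without SKO replicate 3 (adjusted p = 0.00931), and Fmn2 without SKO replicate 2 (adjusted p = 0.00912). With the length and GC correction both were smaller, Fmn1 at -0.11 (adjusted p = 0.587) and Fmn2 at -0.24 (adjusted p = 0.445).

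Daam2, the paralog of Daam1, was scarce, with 54, 66 and 26 counts in wild type and 18, 12 and 6 in SKO. It fell by 1.78 ± 0.62 on the log2 scale (edgeR adjusted p = 0.042). The call ended with limma-voom (adjusted p = 0.0673), with the length and GC correction (0.121) and when any 1 of SKO replicates 2 (0.0935) and 3 (0.0776) and wild-type replicates 1 (0.116) and 2 (0.163) was left out. Fhod3 had 15, 13 and 71 counts in wild type, against 17, 23 and 4 in SKO, with no call (edgeR adjusted p = 0.404).

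The partners of these proteins were read from 8 lists, other formins included, of 81 genes, of which 67 had a row and all 67 were tested. Of them 16 (23.9%) were higher and 10 (14.9%) lower, against 21.2% and 20.9% of all genes. The same shares of all genes stand beside the counts of each list below. Scaling by library totals alone gave 11 higher and 19 lower, with 2831 and 5666 over all genes, and shifted the all-gene median from 0.01 to -0.23. Directions are thus relative to the bulk of genes.

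The Arp2/3 complex is activated by N-WASP. Of 10 subunit genes 3 rose and 3 fell, against 21.2% and 20.9% of all genes. The median was 0.17, or -0.06 under library totals. Actr2 and Actr3, the actin-related core, fell from 66.1 ± 3.94 to 32.1 ± 2.72 CPM (-1.04 ± 0.14) and from 24.6 ± 1.86 to 16.1 ± 1.17 CPM (-0.61 ± 0.15). The small subunit genes Arpc3 and Arpc5 rose from 2.30 ± 0.335 to 6.66 ± 1.02 CPM (1.53 ± 0.23) and from 6.46 ± 0.621 to 15.5 ± 1.87 CPM (1.26 ± 0.17). The edgeR adjusted p was 0.000386, 0.00824, 0.000661 and 0.000438 in that order. Arpc2, Arpc5l and Arpc1a were more abundant, with wild-type means of 274.7, 270.2 and 245.3 CPM. Arpc1a was called lower (-0.37 ± 0.12, adjusted p = 0.0310). Arpc2, at -0.26 ± 0.15, and Arpc5l, at 0.22 ± 0.13, did not pass (adjusted p = 0.192 and 0.194).

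Other WASP family and WAVE complex genes had 2 of 15 higher and 1 lower, with a median of -0.08. Nckap1, a subunit of the WAVE complex that drives Arp2/3, had the lowest fold change of the pathway genes tested. It fell from 63.4, 58.6 and 79.2 CPM in wild type to 5.89, 9.46 and 3.56 CPM in SKO (-3.41 ± 0.32, edgeR adjusted p = 7.37e-05). Its paralog Nckap1l, in the same list, had a higher mean in wild type and was not called. Nckap1l went from 86.0 ± 5.31 to 62.4 ± 12.9 CPM (-0.46 ± 0.17, adjusted p = 0.0510). Jmy, which nucleates actin itself and holds a run of 14 prolines, rose from 7.12 ± 0.752 to 11.7 ± 1.37 CPM (0.71 ± 0.18, adjusted p = 0.00946). Brk1, a small WAVE subunit, rose from 9.57 ± 1.73 to 14.4 ± 0.278 CPM (0.59 ± 0.18, adjusted p = 0.0228). The Jmy call ended under library totals (adjusted p = 0.0666) and without wild-type replicate 3 (0.0508). The Brk1 call ended under library totals (0.14), with the length and GC correction (0.05001) and when SKO replicate 2 (0.0611) or either of wild-type replicates 1 (0.088) and 2 (0.0904) was left out.

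Genes of WASP-binding and adaptor proteins had 3 of 9 higher and 1 lower, with a median of -0.01. Fnbp1l, a membrane-curving protein that recruits N-WASP, rose from 5.41 ± 0.576 to 16.1 ± 2.10 CPM (1.57 ± 0.18, edgeR adjusted p = 0.000169). Wipf2, a proline-rich WASP-binding protein, rose by 1.11 ± 0.32 (adjusted p = 0.0194) and the adaptor gene Nck2 fell by 0.96 ± 0.17 (adjusted p = 0.00154). The Wipf2 call ended under library totals (adjusted p = 0.0588) and when SKO replicate 3 (0.0625) or either of wild-type replicates 2 (0.0703) and 3 (0.0715) was left out.

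Profilin and other Ena/VASP genes had 1 of 5 higher and none lower, with a median of 0.42. Pfn1, the profilin that feeds actin to proline runs, rose from 29.9, 30.6 and 31.0 CPM to 82.9, 76.8 and 102.2 CPM (1.52 ± 0.15, edgeR adjusted p = 8.61e-05). The testis profilin gene Pfn4 was more abundant, with a mean CPM of 446.7 in wild type against 390.5 in SKO, and did not pass (-0.19 ± 0.11, adjusted p = 0.191). Vasp, a relative of Enah, stood at 0.45 ± 0.20 (adjusted p = 0.0962). Of 4 other nucleator genes, Lmod3 rose by 2.92 ± 0.59 from 0.129 CPM (adjusted p = 0.00357) and Cobll1 fell by 1.93 ± 0.45 from 2.01 CPM (adjusted p = 0.00753).

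Genes of actin, capping and filament disassembly had 6 of 17 higher and 2 lower, with a median of 0.31. Over all genes 21.2% were higher and 20.9% lower. Without SKO replicate 3, 12 of the 17 were higher, with 4329 of 20262 over all genes, where the all-gene median was -0.05. Tmsb4x and Tmsb10, which hold actin monomers in reserve, rose by 2.13 ± 0.15 (adjusted p = 1.93e-05) and 0.89 ± 0.14 (adjusted p = 0.000992). Tmsb4x is X-linked, and 63.3% of the 738 X-linked genes tested were called higher and 1.76% lower, with a median of 1.31. Cap2 and Cfl2, of monomer recycling and filament severing, fell by 1.43 ± 0.21 (adjusted p = 0.000685) and 0.77 ± 0.17 (adjusted p = 0.00502). Srf, the transcription factor that reads the pool of free actin through its partners Mrtfa and Mrtfb, fell from 51.5 ± 3.56 to 21.7 ± 2.52 CPM (-1.25 ± 0.15, edgeR adjusted p = 0.000233). Mrtfa, at 0.29 ± 0.28, and Mrtfb, at -0.48 ± 0.20, did not pass (adjusted p = 0.427 and 0.0834).

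**Figure D4:**
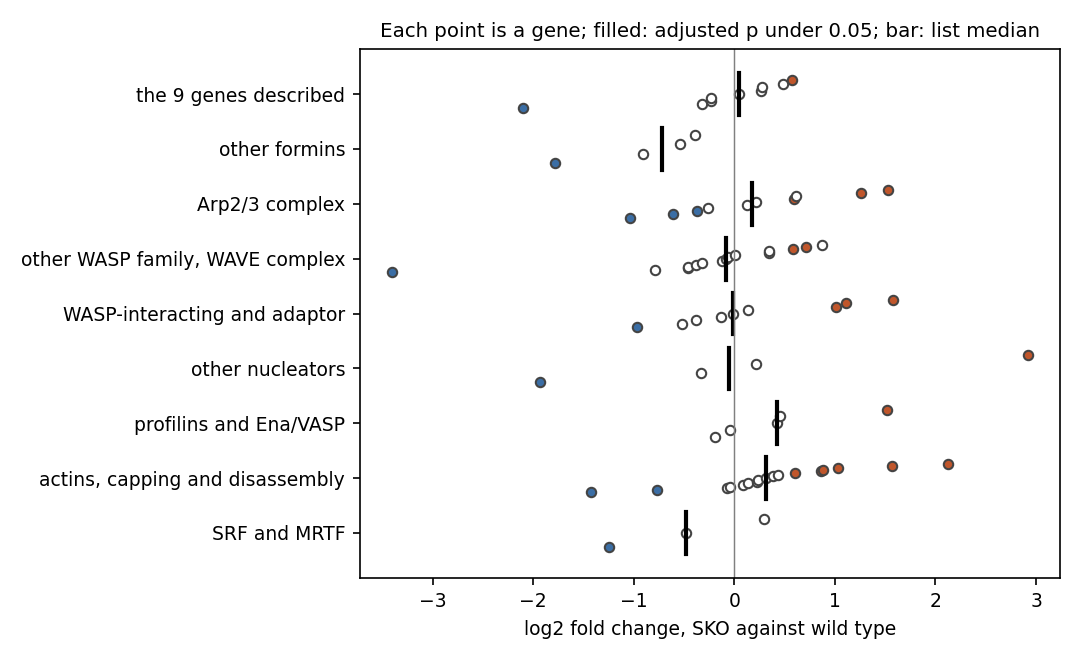
Log2 fold change of every tested gene of the members and the 8 lists, with orange for genes called higher, blue for genes called lower, white for genes not called and a bar at each list's median. Nckap1 is the lowest point at -3.41 and Lmod3 the highest at 2.92.

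Markers of other cell types and of other germ cell stages differed between the groups in part. Over all genes 21.2% were called higher and 20.9% lower. Sertoli markers summed to a CPM of 36.7 to 89.1 in SKO, against 1.92 to 3.48 in wild type, over 7 of 12 markers with a row. All 7 were called higher, while Sox9, Wt1, Amh, Gata4 and Fshr had no row. Leydig markers (6 of 8) summed to 8.02 to 44.6 against 1.26 to 21.6, and the groups overlapped. All 6 had positive log2 fold changes, with 3 called higher and none lower. The wild-type sum of 21.6 was that of replicate 3. There Hsd3b1 had 13.6 CPM, against 0.102 and 0.648 in wild-type replicates 1 and 2. Myoid markers (4 of 6) summed to 109.5 to 116.4 CPM and 214.2 to 236.6 CPM, and the genes went different ways. Actg2, which made up most of the sum, fell by 1.30 ± 0.13 (edgeR adjusted p = 9.05e-05), while Acta2 rose by 1.87 ± 0.37 (adjusted p = 0.00315), Myh11 and Cnn1 did not pass, and Tagln and Des had no row. Blood and vessel markers (4 of 7, all globin genes) summed to 13.4 to 38.8 CPM and 4.64 to 19.2 CPM, which overlap. Spermatocyte markers (10 of 10) summed to 724.0 to 907.9 CPM and 890.2 to 896.3 CPM, which also overlap. Within that sum the genes went different ways, with 3 called higher and 3 lower. Sycp3 rose by 1.82 ± 0.16 (edgeR adjusted p = 5.77e-05) and Aurkc fell by 2.25 ± 0.14 (adjusted p = 1.21e-05). Spermatogonium markers (6 of 8) summed to 18.3 to 20.7 CPM and 23.7 to 27.7 CPM. Elongating spermatid markers (10 of 10) summed to 11418 to 12941 CPM and 6811 to 7540 CPM, with 7 called higher and none lower. In every library this sum was above that of the round spermatid markers. Whether this RNA came from the sorted round spermatids themselves was not tested. The part of any of these marker sets in the changes of Enah, Fmnl1 and the actin genes was not tested. In bulk libraries, a different mix of cells and a different level per cell cannot be told apart.

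Across all coding genes, the longest proline run was set beside the change of the RNA. Over all coding genes tested, 21.8% were called higher and 22.3% lower. Genes with runs of 10 or more had a median log2 fold change of 0.04. Of these 64 genes 12 (18.8%) were higher and 11 (17.2%) lower. Genes with runs of 7 to 9 had a median of 0.15. Of these 99 genes 18 (18.2%) were higher and 17 (17.2%) lower. The median was -0.07 for runs of 5 to 6 (262 genes), -0.18 for runs of 3 to 4 (2487 genes) and 0.03 for genes with no run above 2 (10389 genes). In the class of runs of 3 to 4, 26.9% were lower and 14.2% higher, against 21.2% and 23.8% where no run exceeded 2. For runs of 5 to 6, 24.8% were lower and 14.1% higher. The order of the classes is not monotonic, and the classes also differ in transcript length, with medians of 2436 bases for no run above 2, 3517 for runs of 3 to 4 and 4323 for runs of 10 or more.

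The medians of the longest classes spread more between SKO libraries than the shift itself. For runs of 10 or more they ran from -0.20 in SKO replicate 2 to 0.27 in SKO replicate 3, each against the wild-type mean. Corrected for length and GC content, the median was 0.08 for no run above 2, 0.02 for runs of 3 to 4 and 0.19 for runs of 5 to 6. It was 0.43 for runs of 7 to 9 and 0.38 for runs of 10 or more, against 0.08 over all coding genes. Runs of 3 to 4 thus still had the lowest median of the classes. Without SKO replicate 3 and without that correction, the medians of the 2 longest classes were -0.05 (7 to 9) and -0.08 (10 or more). Over all coding genes the median was then -0.05. The correction was not run without that library. No test was made, since genes are not replicates.

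**Figure D5:**
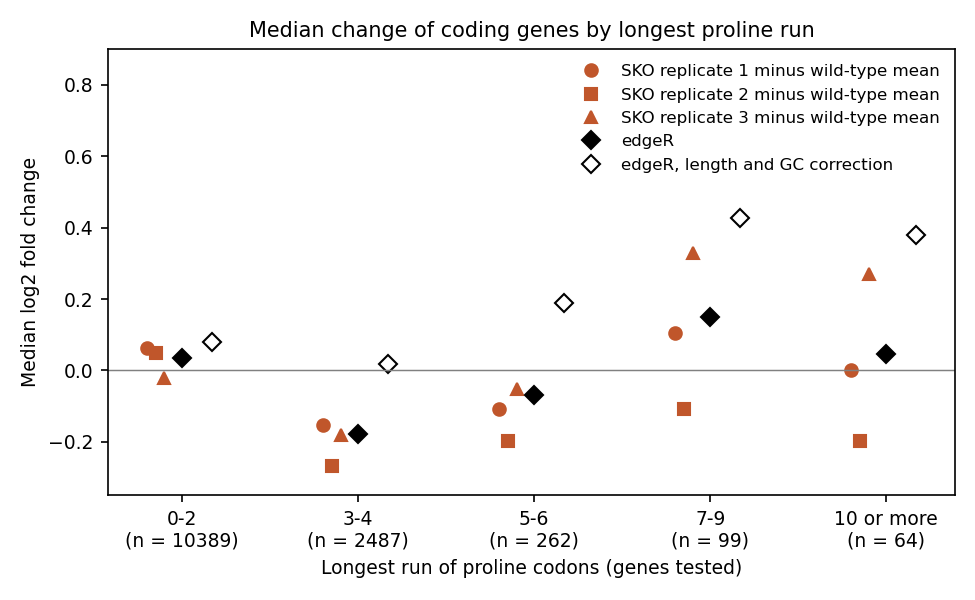
Median log2 fold change of coding genes by their longest run of proline codons: each SKO library against the wild-type mean (orange), edgeR (black) and edgeR with the length and GC correction (open). For runs of 10 or more, the 3 SKO libraries spread from -0.20 to 0.27.

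Enah was taken for a comparison with all genes because its wild-type mean per kilobase of the chosen transcript was the highest among members, an order that the joined exons do not keep. The genes whose log2 CPM over the 6 libraries was most like it were Gm26728, Gm6252 and Sf3b5, with Pearson r of 0.998, 0.997 and 0.997. Sf3b5, a splicing factor subunit gene, went from 24.3 to 40.3 CPM. The 6 libraries share the 2 groups, and 750 genes had r above 0.95, so the likeness is a description of these libraries.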

How the data were processed

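Polyadenylated RNA of sorted round spermatids was measured in 3 SKO and 3 wild-type libraries. The authors deposited a table of raw gene counts, whose columns were assigned to libraries through genotype and replicate number in their names. Per the submitters' processing notes, reads were handled with Trim Galore (0.6.4), FastQC, HISAT2 (2.0.5), Subread and featureCounts (1.5.0-p3) on GRCm38 (mm10). For the annotation release, strand setting and multi-mapping reads, the status is "not given in the sources used here", so overlapping and near-identical genes can share counts.

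The main test was edgeR 4.0.16 in R 4.3.3, a quasi-likelihood test of genotype with TMM factors. Its default filter kept 19776 genes and dropped 2994, p-values were adjusted by Benjamini-Hochberg over those kept, and the script was checked on simulated data. SE is the size of the log2 fold change over the root of F. Of 22770 rows, 22257 matched a GENCODE M21 gene. Transcript length, GC and proline codons (CCN, in frame) were read from the transcript whose coding sequence is longest, in place of the protein table planned. Members and lists were chosen with earlier results of these data known, and no list was tested as a set. Some planned items are not reported here. Named were the members, the other formins and, per further list, up to 2 called genes in each direction with the lowest adjusted p. Named after their values were seen were Nckap1l, Arpc1a, Arpc2, Arpc5l, Pfn4, Vasp, Mrtfa, Mrtfb and single markers. Same-numbered libraries did not deviate together. Alternatives were other scalings (size factors, upper quartile, library totals), no filter or 5 CPM in 3 libraries, DESeq2 1.42.0, limma-voom (limma 3.58.1), stricter thresholds, each library left out, a replicate block, and a loess correction for GC and length.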

Additional observations from a re-analysis of the deposited data

How the results depend on the processing

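Fmnl1 stayed lower in all 17 alternatives, with adjusted p at most 0.00147, and Eif5a likewise, at -6.85 to -6.68 with 1 library left out. The number of members called higher, 1 as reported, was 0 under library totals, at an adjusted p under 0.01 and with a 2-fold minimum, 2 with 5 CPM in 3 libraries and with the length and GC correction, and 0 to 1 with 1 library left out; the number called lower stayed at 1. The median of the members ran from -0.50 to 0.18 with 1 library left out. It was 0.29 with the length and GC correction, against -0.01 over all genes. With 5 CPM in 3 libraries, which kept 4 members, it was 0.41 (all genes 0.03), and under library totals -0.19 (all genes -0.23). Signs that turned belonged to genes that were not called: Diaph1 was -0.19 under library totals and -0.17, -0.037 and -0.056 without SKO replicate 3, wild-type replicate 1 and wild-type replicate 3. With 1 library left out Diaph1 ran from -0.17 to 0.23, Fmnl2 from -0.67 (SKO replicate 3) to 0.043 (SKO replicate 2), Fmnl3 from -1.13 (SKO replicate 3) to 0.17 (SKO replicate 1), Fhod1 from -0.50 (SKO replicate 3) to 0.54 and Fhod3 from -1.35 to 0.26, and Fmnl3 was 0.23 with the length and GC correction. The cause was not tested.

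Of the pathway genes, 10 were higher and 6 lower with a 2-fold minimum and 19 lower under library totals; with 1 library left out 13 to 20 were higher and 8 to 13 lower. Over all genes, 2611 higher and 2553 lower passed 0.01, 2321 and 2562 changed at least 2-fold, 2742 were lower with 5 CPM in 3 libraries, where 10279 genes were tested, and 3064 to 4329 higher and 3025 to 4766 lower with 1 library left out. The block on the replicate number gave 3552 higher and 3666 lower genes, Enah at an adjusted p of 0.0412, and the same 2 members called. Same-numbered libraries had correlations of -0.065 to -0.022 in their deviations, so the numbers were not taken as pairs; no SKO library correlated best with its own number. Per kilobase of joined exons the wild-type levels were 0.796 for Diaph1, 5.57 for Diaph3, 8.17 for Fmnl1, 0.182 for Fmnl2, 0.136 for Fmnl3, 0.944 for Daam1, 0.553 for Fhod1, 0.5995 for Wasl and 1.55 for Enah, all in CPM per kb. The median for proline runs of 10 or more was 0.38 after the length and GC correction (a use added once the data had been seen). Over all coding genes it was then 0.08. Without SKO replicate 3 and without that correction, runs of 10 or more had -0.08, against -0.05 over all coding genes. Fmnl2 and Fmnl3, below 70 counts in each library, limit what could be detected.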
